A study of Homo sapiens with 8 samples.

Results

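The replication-dependent histone genes supply the core histones H2A, H2B, H3 and H4 and the linker histone H1 that package newly made DNA. They were examined in LNCaP cells, a human prostate cancer cell line, treated for 4 hours with OSMI-2, with AT7519, with both agents together (Combination) or with Control. OSMI-2, at 40 µM, blocks OGT (O-GlcNAc transferase), which adds N-acetylglucosamine to proteins of the nucleus and cytosol. AT7519, at 0.5 µM, inhibits several cyclin-dependent kinases including CDK9, which releases paused RNA polymerase II as part of P-TEFb. The µM doses come from the series design; a treatment label has the same figures in mM. Each group had 2 RNA sequencing libraries, and the series asks how blocking OGT changes the dependence of these cells on CDK9. Nothing in the labels says whether the 2 libraries came from separate cultures, so p-values rest on a spread between libraries that may be technical.

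The genes were chosen by their symbol, of the older HIST nomenclature for clusters HIST1 to HIST4, and selected on a measured mean, across all 8 libraries, of 10 normalised counts or more. Of 89 such symbols, 43 met this minimum. Of the 46 that did not, 21 were 0 in every library and 25 had a mean above 0 but under 10. Several of these, mainly in HIST2, nearly copy another gene. All 50-base sequences of HIST2H2AA3, HIST2H3A and HIST2H3C, for example, occur in another annotated gene. How reads shared between genes were counted is not given, so a low count need not mean a silent gene. The minimum was read from the same libraries, so mean levels are a description and a gene high in 1 group could pass through it. Nearest above it lay HIST1H2BE with a mean of 11.0, HIST1H2AH with 11.8 and HIST1H3PS1 with 12.8, and nearest below it HIST1H4D with 9.80, HIST1H2AB with 9.67 and HIST2H2BD with 9.25. The 43 genes comprised 4 of 8 H1, 10 of 22 H2A, 13 of 26 H2B, 7 of 17 H3 and 9 of 16 H4 symbols. Cluster HIST1, on chromosome 6, contributed 38 of its 67 symbols, HIST2 2 of 17, HIST3 2 of 4, and HIST4 its 1 symbol. GENCODE 29 annotates 40 of the 43 as protein coding and HIST1H1PS1, HIST1H3PS1 and HIST2H2BA as pseudogenes.

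In dividing cells most of these genes are transcribed in S phase, under the coactivator NPAT, and their stem-loop transcripts have no introns. The pre-mRNA is cut after a conserved stem-loop that the protein SLBP binds, with the U7 snRNP and its proteins LSM10 and LSM11, and the mature mRNA carries the stem-loop in place of a poly(A) tail. Some histone genes can also give longer, polyadenylated transcripts that run past the stem-loop. CDK9 and the elongation factors it acts on have been linked to the correct 3′ ends of histone mRNA.

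A stem-loop of 16 bases, with a stem of 6 pairs beginning GG and a loop of 4 bases, was found in an annotated transcript of 21 of the 43 genes and in 0.821% of all GENCODE genes. Annotated transcripts of 22 genes held none of this form, and some of those models, such as HIST1H2BK, hold only the coding part. The sites of the genes called with AT7519 that have such a stem-loop are printed below. The stem-loop is in capitals, as DNA letters of the transcript strand at GRCh38 positions. Only this form was searched for, so the likeness of the sites is largely set by the search. HIST1H1C, HIST1H1E, HIST1H2AJ, HIST1H2BK and HIST1H4C, also called with AT7519, had no such stem-loop and are not shown. Genes that fell with AT7519 come first and genes that rose follow.
HIST1H3E (chr6:26225593-26225622, plus strand): aaaGGCTCTTCTCAGAGCCaaccactttgt
HIST3H2BB (chr1:228458535-228458564, plus strand): aaaGGCTCTTTTCAGAGCCacccacacgat
HIST4H4 (chr12:14770713-14770742, minus strand): aaaGGCCCTTTTCAGGGCCcccaaactgtc
HIST2H2BF (chr1:149811874-149811903, minus strand): aaaGGCTCTTTTCAGAGCCacttcagtaat
HIST1H2AC (chr6:26124666-26124695, plus strand): aaaGGCTCTTTTCAGAGCCcccctaccgtt
HIST1H2AE (chr6:26217414-26217443, plus strand): aaaGGCTCTTTTCAGAGCCacccacctttt
HIST1H3H (chr6:27810513-27810542, plus strand): aaaGGCTCTTTTCAGAGCCacccacatgcg
HIST1H4H (chr6:26285120-26285149, minus strand): aaaGGCCCTTTTCAGGGCCgcccacttttt
HIST3H2A (chr1:228457358-228457387, minus strand): aaaGGCTCTTTTCAGAGCCacctactatct
Of the 21 stem-loops, 11 shared the form of HIST3H2A and HIST3H2BB, and 5 that of HIST1H4H and HIST4H4. The form of HIST1H3E, which differs from that of HIST3H2A in 1 loop base, was found in 1 gene.

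Libraries held 60152710 to 154367238 reads assigned to genes, and the 43 genes took 0.0301% to 0.0408% of all counts. Values below are read counts divided by the authors' size factor of each library ("normalised counts"), which are not corrected for gene length. The level was concentrated in few genes: HIST1H2BK with a mean of 8816, HIST1H1C with 7479 and HIST1H2AC with 6438 held 63.5% of the summed level, and the 10 highest genes 89.4%. The median gene had a mean of 85.3, against 861 for all 19393 genes tested. As a check of the cell type, the luminal prostate markers KLK3, KLK2 and HOXB13 were detected in every library. The basal markers KRT5 and TP63 and the leukocyte marker PTPRC reached at most 2.94, 1.82 and 3.05 normalised counts, and the endothelial marker CDH5 was at 0. The third basal marker, KRT14, had 40.0 to 104 in every library and rose with Combination against Control (0.92 ± 0.32, adjusted p = 0.0239), and the endothelial VWF had 1132 to 1506. The 4 fibroblast markers summed to 2202 to 2950 with OSMI-2, 3222 to 3934 with AT7519, 3598.5 to 4311 with Combination and 2517 to 2537 with Control, mostly COL1A1, with DCN at a median of 0.491; their part in the results was not tested.

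Replicate 2 lay above replicate 1 for most histone genes in every group, namely in 35 of 43 with OSMI-2, 35 with AT7519, 32 with Combination and 33 with Control. The median difference was 0.25, 0.28, 0.27 and 0.21 on the log2 scale in the same order of groups, whereas the median over all tested genes lay between -0.020 and 0.0029. This shift was about as large as the fitted changes of many genes, and its cause was not tested. A fit with a term for the replicate number called 16 of the 43 genes with AT7519 and 13 with Combination against Control, where the main fit called 14 and 12. It called 1 with OSMI-2 against Control and 1 for Combination against AT7519, where the main fit called 0 in each.

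The summed level of the 43 genes was higher in both libraries with AT7519 and in both with Combination than in either Control library. It came to 27243 and 32453 normalised counts with OSMI-2, 39602 and 45861 with AT7519, 37658 and 44731 with Combination, and 27285 and 31793 with Control. The mean with AT7519 was 1.45 times and with Combination 1.39 times that of Control, and with OSMI-2 it was 1.01 times. The rise depended on the scale. As a share of all counts the sum was 0.0336% and 0.0403% with AT7519, 0.0347% and 0.0408% with Combination and 0.0301% and 0.0347% with Control, so that the groups overlapped. All 13 mRNAs of the mitochondrial genome, which a polymerase of its own transcribes, were called higher with AT7519 and with Combination (median log2 change 0.91 and 0.99). Relative to their sum, the histone level was 0.477% and 0.614% with AT7519, 0.448% and 0.556% with Combination and 0.640% and 0.778% with Control, and both treated groups lay below both Control libraries. In bulk RNA, fewer cells in S phase and less histone mRNA per cell cannot be told apart.

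**Figure D1:**
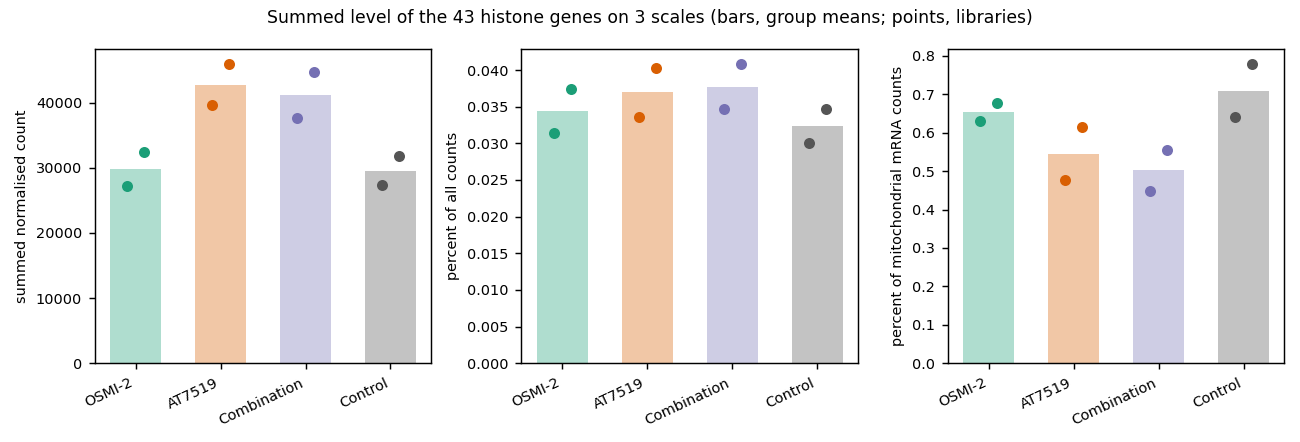
Summed level of the 43 histone genes in each library (points) with group means (bars), as normalised counts, as a percent of all counts and as a percent of mitochondrial mRNA counts. AT7519 at 39602 and 45861 and Combination at 37658 and 44731 lie above Control on the first scale and below it on the last.

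AT7519 gave both rises and falls among histone genes. Against Control, 14 of the 43 changed at an adjusted p below 0.05 (limma, Benjamini-Hochberg over all tested genes), 9 higher and 5 lower, whereas 53.2% of all tested genes changed, 26% higher and 27.2% lower. A smaller share of histone genes than of all genes was therefore called. With a minimum mean of 50 it was 12 of 28 histone genes, again a smaller share than over all genes at that level (9506 of 15285). The median log2 change of the 43 was 0.19, against -0.0042 over all tested genes, but it came to 0.021 without Control replicate 1, 0.033 without AT7519 replicate 2, 0.36 without AT7519 replicate 1 and -0.15 with equal totals. Both AT7519 libraries lay above both Control libraries for 14 of the 43 genes and below them for 8, against 37.7% and 38.4% of all genes. Of the 7 genes with a mean of at least 1000, all had a positive value and 6 rose, and the remaining one, HIST1H2BD, which encodes an H2B, was at 0.26 ± 0.20 (log2, SE). Of all 9344 tested genes at that level, 56.8% had a positive value and 39.7% rose.

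**Figure D2:**
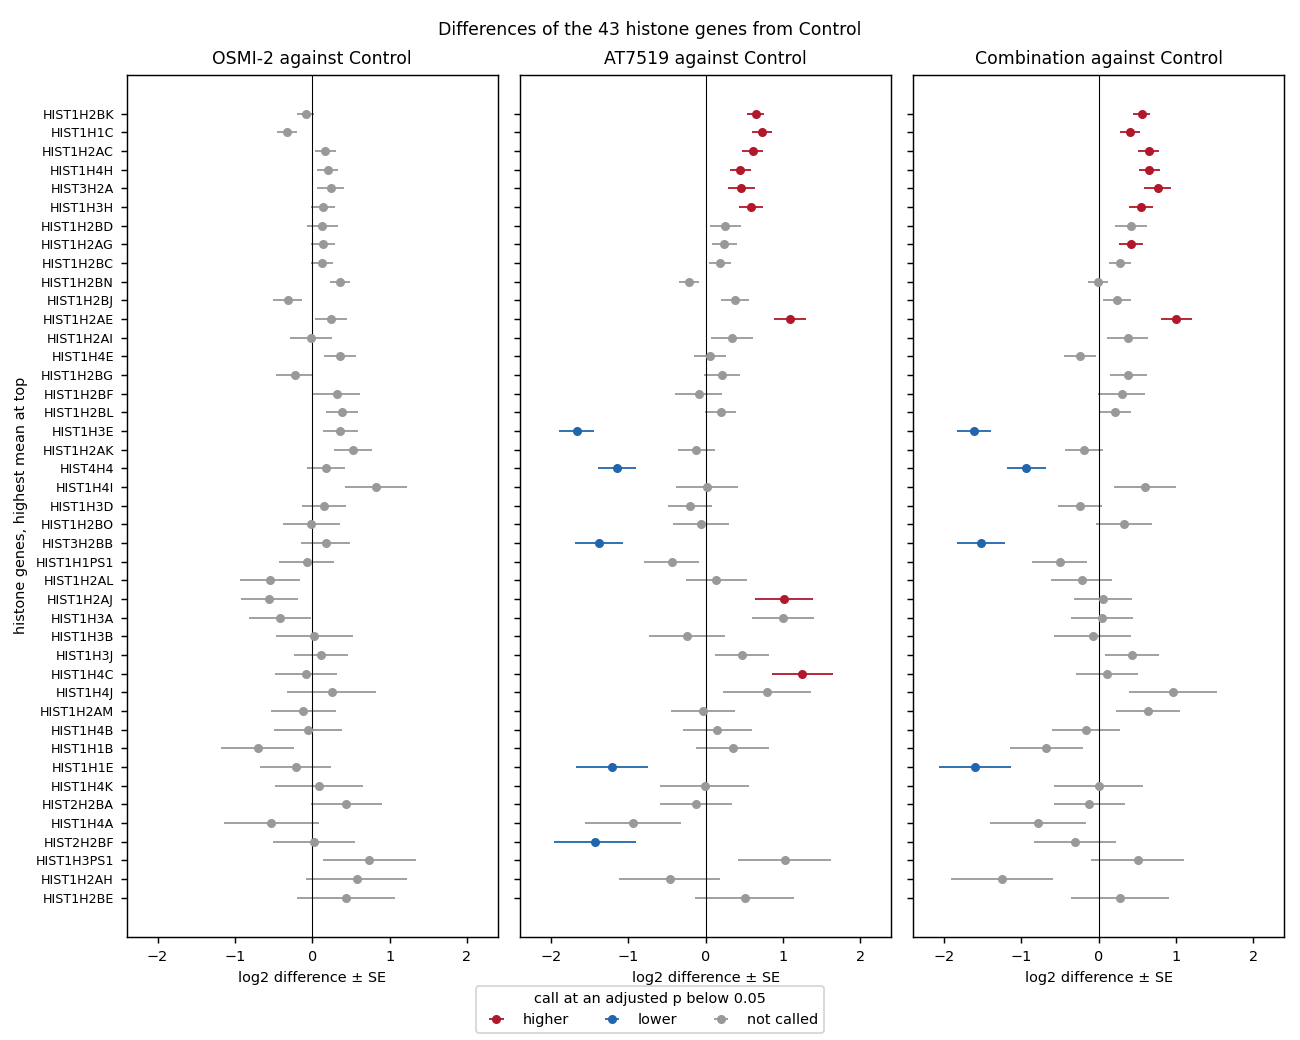
Log2 difference from Control with its SE for each of the 43 histone genes, ordered by mean level, with OSMI-2, AT7519 and Combination in the left, middle and right panels, coloured by call. Genes at the top of the order lie mostly to the right of 0 with AT7519, while HIST1H3E, HIST4H4 and HIST3H2BB stand at -1.66, -1.14 and -1.37.

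Among the H3 genes, HIST1H3E showed the lowest value with AT7519. It had 73.5 and 89.5 normalised counts with AT7519 against 287 and 234 with Control, a log2 change of -1.66 ± 0.22, adjusted p = 2.58e-05. OSMI-2 left it at 311 and 359 and Combination at 88.2 and 80.2, so the 4 libraries that received AT7519 lay apart from the 4 that did not. The other H3 gene called, HIST1H3H, moved the other way, with 1356 and 1593 with AT7519 and 845 and 1127 with Control (0.59 ± 0.15, adjusted p = 0.00505). HIST1H3H lost its call without Control replicate 1 (adjusted p = 0.0916). HIST1H3A, another H3 gene, was at 101 and 78.3 against 35.3 and 54.9 and narrowly missed the threshold (1 ± 0.40, adjusted p = 0.0504).

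Of the H4 genes, HIST4H4, the only gene of its cluster, fell and HIST1H4C and HIST1H4H rose. HIST4H4 had 73.5 and 79.3 normalised counts with AT7519 against 166 and 174 with Control (-1.14 ± 0.25, adjusted p = 0.00139), with no overlap. HIST1H4C had 57.1 and 101 with AT7519 against 39.4 and 24.7 with Control (1.25 ± 0.40, adjusted p = 0.0161), the largest rise on the log2 scale but at low counts, and its call was lost without Control replicate 2 or AT7519 replicate 2 (adjusted p up to 0.156). HIST1H4H, the H4 gene with the highest count, had 2681 and 3347 against 2089 and 2307 (0.45 ± 0.14, adjusted p = 0.013), and was not called without Control replicate 1 or AT7519 replicate 2 (adjusted p up to 0.132).

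All 4 H2A genes called were higher with AT7519. HIST1H2AE had 508 and 627 normalised counts with AT7519 against 249 and 280.2 with Control (1.09 ± 0.20, adjusted p = 4.33e-04). HIST1H2AC had 7144 and 7859 against 4387 and 5506 (0.61 ± 0.13, adjusted p = 0.00156), and HIST1H2AJ had 96.4 and 92.5 against 42.3 and 50.4 (1.02 ± 0.37, adjusted p = 0.0324). These 3 did not overlap between the groups, while HIST3H2A, at 2035 and 1400.2 with AT7519 and 1454 and 1029 with Control, did (0.46 ± 0.17, adjusted p = 0.0337), and it was not called without Control replicate 2 or AT7519 replicate 1 (adjusted p up to 0.378). The HIST1H2AJ call was lost in turn without each of the 2 Control and 2 AT7519 libraries (adjusted p up to 0.157), and 83.7% of its 50-base sequences also occur in another gene, so its reads may be shared.

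The H2B genes were split. HIST1H2BK, the histone gene with the most counts, had 10048 and 12198 normalised counts with AT7519 against 6584 and 7573 with Control (0.65 ± 0.11, adjusted p = 2.25e-04). Of the 50-base sequences in its annotated transcript, 74.1% occur in another gene too. HIST3H2BB fell, with 38.0 and 48.8 against 105 and 123 (-1.37 ± 0.31, adjusted p = 0.00183). HIST2H2BF had 7.61 and 11.2 against 26.5 and 26.6 (-1.43 ± 0.53, adjusted p = 0.035), at low counts, and was not called without either Control library or AT7519 replicate 1 (adjusted p up to 0.131). Its exons overlap FCGR1A on the other strand, which matters if counting ignored the strand.

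The linker histone genes also went in both directions. HIST1H1C, the main H1 gene by count, had 9639.6 and 11117 normalised counts with AT7519 against 5449 and 7117 with Control (0.73 ± 0.13, adjusted p = 2.78e-04). HIST1H1E had 24.1 and 13.2 against 38.2 and 47.6 (-1.21 ± 0.46, adjusted p = 0.0396). Neither overlapped between the groups, but the HIST1H1E fall rested on low counts and lost its call in 5 of the 8 fits that left out 1 library, namely each Control and OSMI-2 library and AT7519 replicate 2 (adjusted p up to 0.222).

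**Figure D3:**
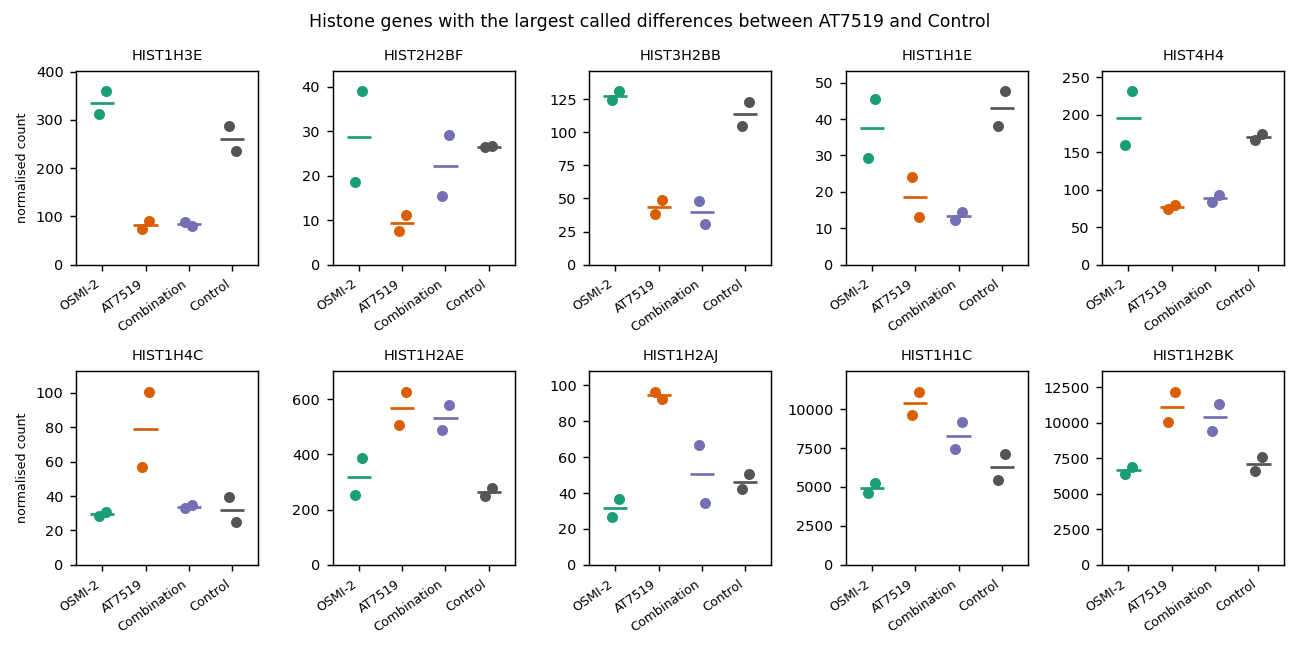
Normalised counts per library (points) and group means (lines) of the 5 histone genes that fell with AT7519 (top row) and the 5 largest rises (bottom row), with OSMI-2, AT7519, Combination and Control from left to right. For HIST1H3E, HIST3H2BB and HIST4H4 the AT7519 and Combination libraries lie below all OSMI-2 and Control libraries.

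Calls depended on how the libraries were scaled, and scalings that lower all genes together also lower the histone genes. On scaling to equal library totals the calls were 3 higher and 6 lower, with the median of all genes at -0.34, and under quantile normalisation, which has no such shift, 13 higher and 3 lower. On scaling to mitochondrial mRNA they were 0 higher and 26 lower, with the median of all genes at -0.91. None of the 9 rises kept its direction and call under all 3 scalings, and HIST1H1C, HIST1H2AC, HIST1H2BK, HIST1H3H, HIST1H4H and HIST3H2A changed sign under the mitochondrial one. Of the 5 falls, HIST1H3E, HIST3H2BB and HIST4H4 kept theirs under all 3 and without each library in turn. HIST1H1E and HIST2H2BF lost theirs under quantile normalisation. Without either Control library in turn, 9 of the 43 genes were called in place of 14.

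The annotated 3′ ends of the genes were also compared, a feature looked at after the values were known and therefore not tested. The distance can be measured only for the 21 genes with a stem-loop of the form searched. A GENCODE transcript ran at least 1000 bases past it in 8 of the 21, of which 4 fell and 2 rose with AT7519, against 0 falls and 3 rises in the other 13. At a minimum of 100 bases the groups were 15 genes with 4 falls and 4 rises and 6 genes with 0 falls and 1 rise, and the 22 genes with no such stem-loop had 1 fall and 4 rises. Of all tested genes, 27.2% fell and 26% rose with AT7519. In groups this small, such counts do not tie the distance to the direction of change. The falling genes past 1000 bases were HIST3H2BB (1917 bases past), HIST1H3E (1862), HIST4H4 (1510) and HIST2H2BF (1479), and the rising ones HIST1H4H (1655) and HIST1H2AC (1128). HIST1H2BG and HIST1H4E, the other two, were at 0.22 and 0.06 on the log2 scale. A spliced transcript was annotated for 13 of the 43 genes, of which HIST1H3E, HIST2H2BF and HIST4H4 fell and HIST1H2AC and HIST1H4H rose. Gene counts do not separate transcripts that end at the stem-loop from longer ones, and the sources used here do not say whether poly(A) RNA was selected.

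Against the same Control libraries, Combination changed 12 histone genes, 8 higher and 4 lower, while 53.9% of all tested genes changed, 26.3% higher and 27.6% lower. Their median log2 change was 0.21, against 0.022 over all tested genes, and it came to 0.087 without Control replicate 1, 0.069 without Combination replicate 2 and -0.049 with equal totals. Both Combination libraries lay above both Control libraries for 15 histone genes and below them for 6, against 39% and 38% of all genes. HIST1H3E had 88.2 and 80.2 normalised counts with Combination against 287 and 234 with Control (-1.61 ± 0.22, adjusted p = 3.04e-05). HIST3H2BB had 48.2 and 31.0 against 105 and 123 (-1.53 ± 0.31, adjusted p = 7.94e-04). HIST1H1E, at 12.3 and 14.6 against 38.2 and 47.6, and HIST4H4, at 84.1 and 93.0 against 166 and 174, also fell (-1.60 ± 0.46, adjusted p = 0.00916 and -0.93 ± 0.25, adjusted p = 0.00552). All 4 fell under each of the 3 other scalings too. Equal totals and mitochondrial scaling lower genes in general, with the median of all genes at -0.23 and -0.95, so falls are favoured there. Quantile normalisation, with that median at 0.079, is the scaling that could have gone against them. HIST1H1E lost its call without Control replicate 2.

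Of the 8 rises with Combination, 4 were H2A genes. HIST1H2AE had 487 and 579.9 normalised counts with Combination against 249 and 280.2 with Control (1.005 ± 0.20, adjusted p = 8.04e-04). HIST3H2A had 2101 and 2048 against 1454 and 1029 (0.76 ± 0.17, adjusted p = 0.00171), and here its groups did not overlap. HIST1H2AC (0.65), HIST1H4H (0.65), HIST1H2BK (0.55), HIST1H3H (0.54), HIST1H2AG (0.42) and HIST1H1C (0.41) made up the rest, on the log2 scale, and every one except HIST1H2AE had a negative value on scaling to mitochondrial mRNA. HIST1H1C, HIST1H2AG and HIST1H3H lost their calls without Control replicate 1 and without Combination replicate 2, with adjusted p up to 0.239, 0.262 and 0.136. With equal totals the split was 5 higher and 4 lower, with quantile normalisation 11 and 4, and with mitochondrial scaling 0 and 31.

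OSMI-2 alone changed no histone gene at this threshold. Against Control, 0 of 43 were called by limma and edgeR and 0 of the 20 to which DESeq2 gave an adjusted p, which it withheld from the other 23, with 3 at an unadjusted p below 0.05 in limma, 4 in edgeR and 3 in DESeq2, while 3.02% of all tested genes changed, 0.645% higher and 2.38% lower. The 3 were HIST1H2BN, an H2B gene with 945 and 1069.7 normalised counts with OSMI-2 against 817 and 754 with Control (0.36 ± 0.13, adjusted p = 0.166), HIST1H1C with 4633 and 5288 against 5449 and 7117 (-0.33 ± 0.13, adjusted p = 0.191), and HIST1H2AK with 251 and 259 against 164 and 190.5 (0.53 ± 0.24, adjusted p = 0.28). None of the 3 overlapped between the groups. HIST1H2AK overlaps exons of HIST1H2BN on the other strand, and 100% of its 50-base sequences, on either strand, occur in another gene. Both OSMI-2 libraries lay above both Control libraries for 12 histone genes and below them for 5, against 23.5% and 30.1% of all genes. The median log2 change was 0.13, against -0.018 over all genes, and it came to 0.0058 when Control replicate 1 was left out, 0.22 when Control replicate 2 was, 0.25 when OSMI-2 replicate 1 was and -0.018 when OSMI-2 replicate 2 was.

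Adding OSMI-2 to AT7519 changed no histone gene at the threshold either. Combination against AT7519 called 0 of 43 in limma and edgeR and 1 of the 38 with an adjusted p in DESeq2, with 5, 5 and 3 at an unadjusted p below 0.05, while 19.7% of all tested genes changed, 7.21% higher and 12.5% lower. Both Combination libraries lay above both AT7519 libraries for 5 histone genes and below them for 8, against 25% and 30.6% of all genes. The 5 in limma were all lower with Combination: HIST1H4C, HIST1H2AJ, HIST1H1C, HIST1H3A and HIST1H1B. HIST1H4C had 32.8 and 34.6 normalised counts with Combination against 57.1 and 101 with AT7519 (-1.15 ± 0.40, adjusted p = 0.0577), HIST1H2AJ 66.6 and 34.6 against 96.4 and 92.5 (-0.96 ± 0.37, adjusted p = 0.0863) and HIST1H1C 7435 and 9151 against 9639.6 and 11117 (-0.33 ± 0.13, adjusted p = 0.0941). HIST1H4C, HIST1H2AJ and HIST2H2BF, called with AT7519, were at 0.11, 0.06 and -0.31 with Combination against Control on the log2 scale. The interaction of the agents, which asks whether the effect of AT7519 differed with and without OSMI-2, called 0 of the 43 in limma and edgeR and 0 of the 20 with an adjusted p in DESeq2, with 1 at an unadjusted p below 0.05 in each, and 1.04% of all tested genes, 0.0619% higher and 0.975% lower. That gene in limma was HIST1H4E, an H4 gene, at -0.66 ± 0.29, adjusted p = 0.446.

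Against OSMI-2, Combination changed 17 of the 43 genes, 9 higher and 8 lower, with 54.8% of all tested genes called, 27.5% higher and 27.3% lower. Both Combination libraries lay above both OSMI-2 libraries for 14 histone genes and below them for 10, against 40.1% and 37.3% of all genes. HIST1H3E again had the largest fall, at 88.2 and 80.2 normalised counts with Combination against 311 and 359 with OSMI-2 (-1.98 ± 0.22, adjusted p = 4.73e-06). HIST3H2BB (-1.70), HIST1H1E (-1.39) and HIST4H4 (-1.11) fell as well on the log2 scale, and so did 4 genes that were not called against Control. These were HIST1H2AH at 6.15 and 3.65 against 21.6 and 17.4 (-1.82 ± 0.66, adjusted p = 0.0294), close to the minimum level, and HIST1H2AK (-0.71), HIST1H4E (-0.60) and HIST1H2BN (-0.36). The rises were led by HIST1H2AE (0.76 ± 0.20, adjusted p = 0.00567) and HIST1H1C (0.74 ± 0.13, adjusted p = 2.48e-04). They also took in HIST1H2BK, HIST1H2BG, HIST1H2BJ and HIST3H2A, at 0.64, 0.61, 0.55 and 0.52, with HIST1H2AC, HIST1H4H and HIST1H3H at 0.48, 0.45 and 0.40. With equal totals the split was 2 higher and 10 lower, with quantile normalisation 12 and 5, and with mitochondrial scaling 0 and 21. The count of 17 dropped to 8 without replicate 1 of OSMI-2, to 10 without its replicate 2 and to 10 without Combination replicate 2. HIST1H3E, HIST3H2BB, HIST4H4, HIST1H1C and HIST1H2BK kept their calls without each library in turn.

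HIST3H2A and HIST3H2BB, an H2A and an H2B gene on chromosome 1, are transcribed away from each other with 233 bases between their annotated starts. HIST3H2A had 2035 and 1400.2 normalised counts with AT7519, 2101 and 2048 with Combination and 1454 and 1029 with Control. HIST3H2BB had 38.0 and 48.8 with AT7519, 48.2 and 31.0 with Combination and 105 and 123 with Control. The ratio of HIST3H2A to HIST3H2BB, which 1 scaling factor per library does not alter, was 53.5 and 28.7 with AT7519 and 43.6 and 66.1 with Combination, against 11.5 and 11.1 with OSMI-2 and 13.9 and 8.39 with Control. All 4 libraries with AT7519 therefore lay above all 4 without it. Of 8 divergent pairs within 500 bases in which both genes reached the minimum, this was the 1 pair with both genes called, in opposite directions, with AT7519 and with Combination. The pair is described for that reason, so the separation of its ratio follows in part from the choice. Called or not, the 2 values had opposite signs in 3 of the 8 pairs with AT7519, 2 with Combination and 5 with OSMI-2. The 8 are not all separate, since HIST1H2BO is paired both with HIST1H2AM and with HIST1H3J, whose exons overlap on the same strand. With AT7519 the HIST3H2A rise overlapped Control, was lost without Control replicate 2 or AT7519 replicate 1 (adjusted p up to 0.378) and was at 0.12 with equal totals.

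**Figure D4:**
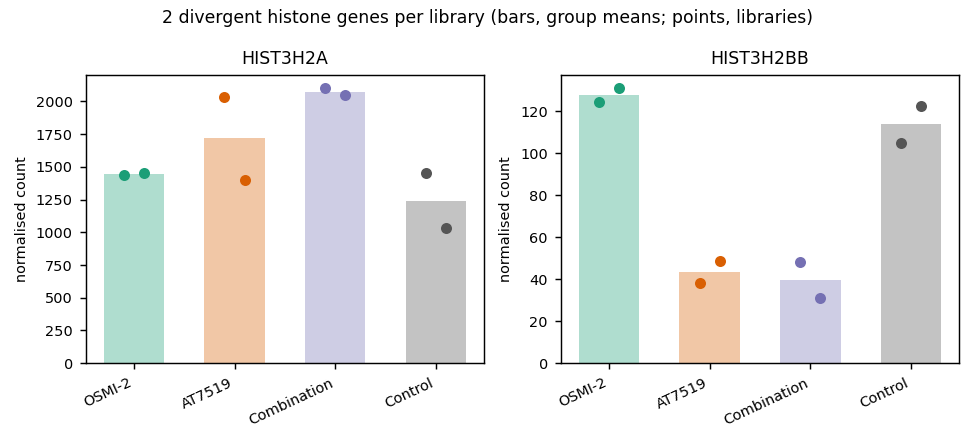
Normalised counts of HIST3H2A (left) and HIST3H2BB (right) per library (points) with group means (bars) for OSMI-2, AT7519, Combination and Control. HIST3H2BB lies between 31.0 and 48.8 in the 4 libraries with AT7519 and between 105 and 131 in the others.

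The promoter windows of this pair, each from 250 bases before to 50 after the RefSeq start, share 271 bases, so both genes read from nearly the same sequence. That of HIST3H2A is printed from RefSeq (GRCh38.p14), on the strand of the gene, with CCAAT boxes on either strand in capitals, since the pair moved in opposite directions.
HIST3H2A (chr1:228457824-228458123, minus strand): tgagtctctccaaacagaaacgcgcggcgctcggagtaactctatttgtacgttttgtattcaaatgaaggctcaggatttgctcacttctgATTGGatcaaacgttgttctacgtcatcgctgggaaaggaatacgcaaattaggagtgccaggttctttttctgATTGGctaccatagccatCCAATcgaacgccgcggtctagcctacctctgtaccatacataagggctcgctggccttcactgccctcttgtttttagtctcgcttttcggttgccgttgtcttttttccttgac
The window held 3 CCAAT boxes and neither TATAAA nor the octamer ATTTGCAT. RefSeq windows were matched for 36 of the 43 genes, and on either strand CCAAT was in 30 of 36, TATAAA in 23 and ATTTGCAT, the octamer known from H2B promoters, in 15. In all RefSeq windows of this length these shares were 34.6%, 11.5% and 1.77%. The octamer was in 6 of 9 H2A and 8 of 12 H2B windows, in 1 of 5 H3 windows and in 0 of 3 H1 and 0 of 7 H4 windows. Many H2A and H2B genes stand in divergent pairs whose windows overlap, and both strands were searched. The same motif can therefore be counted for both genes of a pair. CCAAT was in 1 of 7 H4 windows and in every window of the other classes.

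Some factors that make histone mRNA fell with AT7519 and with Combination, although more of the 19 tested 3′ end processing genes rose than fell. The split was 10 rises and 4 falls with AT7519, and 8 and 5 with Combination. NPAT, the coactivator of histone transcription, had 1264 and 1174 normalised counts with AT7519 and 1131 and 1187 with Combination, against 3260.4 and 3411 with Control (-1.45 ± 0.10, adjusted p = 9.30e-08 and -1.52 ± 0.10, adjusted p = 3.71e-08). LSM11, a U7 snRNP protein, had 316 and 241 with AT7519 and 193 and 120.4 with Combination, against 1417 and 1456 with Control (-2.38 ± 0.21, adjusted p = 5.82e-07 and -3.23 ± 0.21, adjusted p = 3.26e-08). It was also lower with Combination than with AT7519 (-0.85 ± 0.21, adjusted p = 0.011), a call lost without AT7519 replicate 1 or Combination replicate 2 (adjusted p up to 0.118), and the 4 libraries with AT7519 lay far below the others.

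CASP8AP2 (FLASH), which joins SLBP and the U7 snRNP in processing, had 1192 and 1322 with AT7519, 1274 and 1224 with Combination and 2889 and 2716 with Control (-1.16 ± 0.10, adjusted p = 7.51e-07 and -1.16 ± 0.10, adjusted p = 5.00e-07). SLBP, the stem-loop binding protein, fell less, with 5969 and 5294 with AT7519, 4713 and 4143 with Combination and 7142 and 6843 with Control (-0.31 ± 0.10, adjusted p = 0.0139 and -0.66 ± 0.10, adjusted p = 5.10e-05), and its call with AT7519 was lost without Control replicate 1 or AT7519 replicate 2 (adjusted p up to 0.108). LSM10, the partner of LSM11, rose with AT7519, at 4261 and 4355 against 3290.3 and 3252 with Control (0.40 ± 0.09, adjusted p = 0.00143), but was at -0.52 on scaling to mitochondrial mRNA. CDK9 itself rose with AT7519, at 8127 and 8640.2 against 4872 and 4966 (0.77 ± 0.09, adjusted p = 7.62e-06), and was at -0.15 on that scale. None of these 6 was called with OSMI-2 alone.

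**Figure D5:**
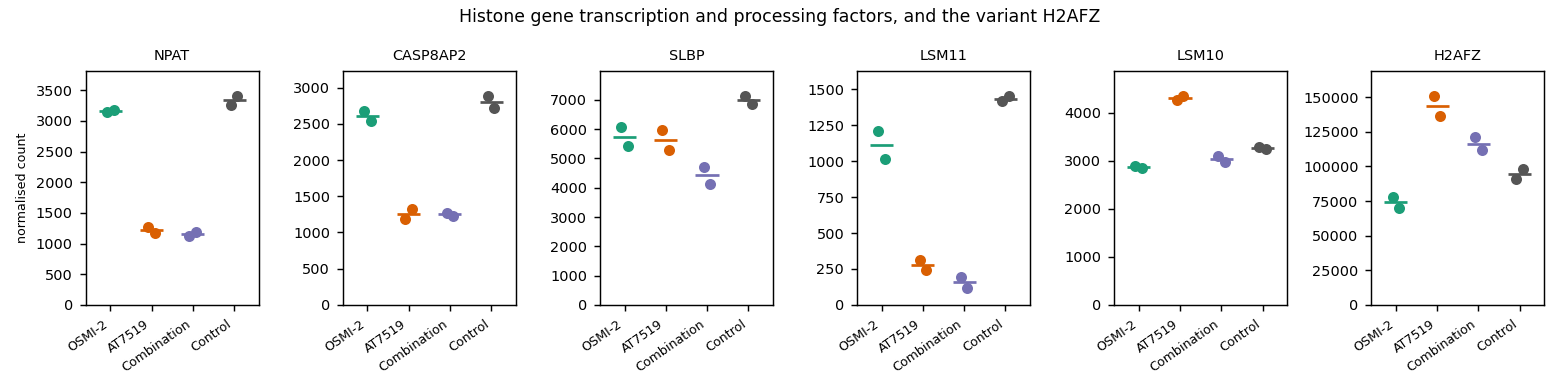
Normalised counts per library (points) and group means (lines) of NPAT, CASP8AP2, SLBP, LSM11, LSM10 and the variant histone H2AFZ, with OSMI-2, AT7519, Combination and Control from left to right. NPAT lies between 1131 and 1264 in the 4 libraries with AT7519 and between 3152 and 3411 in the others.

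Of 19 tested genes for histone 3′ end processing, 10 rose and 4 fell with AT7519, and 8 rose and 5 fell with Combination, while 0 rose and 5 fell with OSMI-2, all against Control, with median log2 changes of 0.26, -0.05 and -0.24. Of all tested genes, 26% rose and 27.2% fell with AT7519, 26.3% and 27.6% with Combination and 0.645% and 2.38% with OSMI-2. Among tested genes with a mean of at least 1000, the level of most genes in these lists, 39.7% rose and 28.9% fell with AT7519. The 5 falls with OSMI-2 were 0 without Control replicate 2 or OSMI-2 replicate 2, 1 without OSMI-2 replicate 1 and 0 without the variance trend. Of 14 genes for histone transcription, 5 rose and 5 fell with AT7519, 3 rose and 7 fell with Combination and 0 changed with OSMI-2 (median 0.09, -0.26 and -0.09), and without Control replicate 1 the rises with AT7519 were 3. Among them CCNE2, a cyclin E gene, had 2359 and 1870.0 with AT7519, 1458 and 1220.0 with Combination and 5637 and 5694 with Control (-1.43 ± 0.13, adjusted p = 6.36e-07 and -2.09 ± 0.13, adjusted p = 2.09e-08). Of 17 genes for histone mRNA decay, 6 rose and 10 fell with AT7519 and 4 rose and 11 fell with Combination (median -0.30 and -0.51), led by the decapping cofactor DCP1A (-1.59 and -1.88). Of 16 histone chaperones, 5 rose and 4 fell with AT7519 and 3 rose and 6 fell with Combination (median -0.11 and -0.08), with 3 rises with AT7519 without Control replicate 1.

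Of 34 tested S phase genes, 0 rose and 13 fell with OSMI-2 against Control, with a median log2 change of -0.39, while 2.38% of all tested genes fell. Calls were more frequent at higher levels. With a minimum mean of 50, 590 of 15285 genes fell with OSMI-2 and 2527 with Combination against AT7519. The 13 falls became 6 when Control replicate 1 was left out, 16 when OSMI-2 replicate 1 was, and 0 when replicate 2 of either Control or OSMI-2 was, and 0 in a fit with no variance trend. CDC25A, a phosphatase that activates CDK2, had 2739 and 2269 with OSMI-2 against 3563 and 4139 with Control (-0.62 ± 0.12, adjusted p = 0.0179), a call lost without Control replicate 2 or OSMI-2 replicate 2 (adjusted p up to 0.325). With AT7519, 10 rose and 9 fell (median 0.13), the falls being 4 without Control replicate 2, and with Combination 1 rose and 17 fell (median -0.24). Of all tested genes 26% rose and 27.2% fell with AT7519, and 26.3% and 27.6% with Combination. At a mean of at least 1000, a level that the S phase genes reach, the shares with AT7519 were 39.7% and 28.9%. With Combination against AT7519, 0 rose and 19 fell, where 12.5% of all tested genes fell, and the falls were 12 without Combination replicate 2 and 4 without the variance trend. CDC25A was at 1320.5 and 1173 with Combination against 2605 and 2931 with AT7519 (-1.15 ± 0.12, adjusted p = 8.00e-05).

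The list of variant and other histone genes outside the HIST clusters includes H3.3 and H2A.Z, whose genes give polyadenylated mRNA outside S phase as well. Of 13 tested, 6 rose and 1 fell with AT7519, 7 rose and 1 fell with Combination, and 0 rose and 1 fell with OSMI-2. Among all tested genes with a mean of at least 1000, the level of most of the 13, 39.7% rose and 28.9% fell with AT7519. The 7 rises with Combination were 4 without Control replicate 1, and of all tested genes 26% rose with AT7519 and 26.3% with Combination. Among the 13, H2BFS shares 50-base sequences with HIST1H2BK. H2AFZ, the H2A.Z variant, had 77913 and 70270.0 with OSMI-2, 151129 and 136820.0 with AT7519, 121099 and 111602 with Combination and 91280.0 and 98217 with Control. It fell with OSMI-2 (-0.36 ± 0.08, adjusted p = 0.031), a call lost without each Control or OSMI-2 library in turn (adjusted p up to 0.386), and rose with AT7519 (0.60 ± 0.08, adjusted p = 2.24e-05) and with Combination (0.30 ± 0.08, adjusted p = 0.006), but both rises had negative values under quantile normalisation and mitochondrial scaling. H3F3A, which encodes H3.3, had 75631 and 65616 with AT7519 against 43366 and 42544 with Control (0.71 ± 0.08, adjusted p = 5.08e-06), and was at -0.20 on the mitochondrial scale. H3F3B, which encodes the same protein, was at -0.00 ± 0.07, the linker variant H1F0 at -0.08 ± 0.08 and H2AFX at 0.19 ± 0.15 (log2, SE), none of them called. The centromeric H3 gene CENPA was the fall with AT7519, at 774 and 727 with AT7519 against 1663 and 1451 with Control (-1.05 ± 0.13, adjusted p = 1.52e-05).

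Sequence shared with other genes, searched on both strands, limits several of these values. More than 50% of the 50-base sequences of 10 of the 43 genes occur in another annotated gene, and for HIST1H2AK, HIST1H3D and HIST1H4K all of them do. For 12 genes none do, among them HIST1H1C, HIST1H1E, HIST1H2AE, HIST1H3H, HIST1H4C and HIST1H4H. For HIST1H3E the share was 1.71%, for HIST4H4 0.188%, for HIST3H2A 0.591% and for HIST3H2BB 9.503%. Exons of 34 genes overlap no other gene, and HIST1H3E, HIST3H2BB and HIST4H4 are among them. HIST1H2BN shares exons with HIST1H2AL on the same strand and with HIST1H2AK on the other. For HIST1H2AK the share above is therefore overlap at the same locus, and so is that of HIST1H3D with AL031777.3 on the same strand.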

How the data were processed

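RNA from LNCaP cells was sequenced in 8 libraries, 2 for each of 4 groups, from a strand-specific TruSeq kit per the labels. The deposited values are a signal, gene read counts divided by 1 size factor per library by the authors; STAR, HTSeq, DESeq2 and the builds hg19 and GRCh37 are named per the submitters' processing notes. Tool versions and the counting strand are not given in sources used here. Dividing by each library's smallest step gave whole reads for 100% of values within 0.01, and these recovered reads went into edgeR 4.0.16 and DESeq2 1.42.0 as alternatives.

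The table held 55737 genes, and 28 lines without a gene name, with 0% of counts, were dropped. Genes with a mean of at least 10 were tested, 19393 in all, on log2(value + 1), so fold changes of low genes are understated. The test was limma 3.58.1 in R 4.3.3, with a trend of variance on mean, all 8 libraries in 4 group means, two-sided, with Benjamini-Hochberg adjustment over all tested genes and calls at an adjusted p below 0.05. In the text "log2 change" values carry SEs, and "rose" or "fell" is used of called genes. Comparisons with Control share its 2 libraries. On simulated counts, in which few genes changed and every gene had the same spread, the fit recovered most known changes. These settings differ from the real data, so that run checked the code only.

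The histone genes and the gene lists were chosen with earlier results of these data known, so no list was tested as a set and counts are set beside those of all genes. Genes were named by rule (the 10 highest, the largest called changes, those nearest the minimum, and list members), with fewer list members given for brevity. No pairing of equal replicate numbers is stated, so the replicate block was fitted only as an alternative. Stem-loops, 50-base sequences, overlaps and gene types come from GENCODE 29, promoters from RefSeq, both by symbol. The 4-base loop had 3 pyrimidines and then A, C or T. Other choices of pseudocount, filter, scaling, tool, block and libraries were tried.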

Additional observations from a re-analysis of the deposited data

How the results depend on the processing

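Counts of called histone genes changed with scaling and with single libraries. With AT7519 against Control they were 9 with no filter on low values, 9 with equal totals and 26 with mitochondrial scaling, against 14 as reported, and 9 to 15 when 1 library was left out. With Combination against Control, mitochondrial scaling called 31 and leaving out 1 library 9 to 16, against 12. Combination against OSMI-2 gave 10 without the variance trend and 8 to 17 without 1 library, against 17. Where the reported count was 0, OSMI-2 against Control gave 1 with mitochondrial scaling and 0 without any 1 library. Combination against AT7519 gave 1 with a pseudocount of 5, 2 with mitochondrial scaling, 1 with quantile normalisation, 1 with DESeq2 and 0 to 2 without 1 library. The interaction stayed at 0 in each setting tried. All other counts stayed within 1.5 times the reported one. The sources used here do not say whether equal replicate numbers pair the libraries. Correlations of deviations between groups were 0.021 to 0.12 over 19393 genes and -0.46 to 0.43 over the 43 histone genes. A correlation leaves out a shift common to all genes, so these values do not decide the pairing. The replicate block gave 1 with OSMI-2 and 1 for Combination against AT7519, and 16 for AT7519 and 13 for Combination against Control. In AT7519 against Control, mitochondrial scaling turned the sign of the log2 value for HIST1H1C -0.18, HIST1H2AC -0.31, HIST1H2BK -0.27, HIST1H3H -0.33, HIST1H4H -0.47, HIST3H2A -0.45, LSM10 -0.52, CDK9 -0.15, H2AFZ -0.31, H3F3A -0.20, HIST1H2BD -0.66, HIST1H2AG -0.67 and HIST1H2BC -0.72. In Combination against Control, mitochondrial scaling turned the sign of the log2 value for HIST1H1C -0.57, HIST1H2AC -0.33, HIST1H2AG -0.56, HIST1H2BK -0.42, HIST1H3H -0.44, HIST1H4H -0.33, HIST3H2A -0.22, H2AFZ -0.68, HIST1H2BD -0.56 and HIST1H2BC -0.70. In Combination against OSMI-2, mitochondrial scaling turned the sign of the log2 value for HIST1H1C -0.12, HIST1H2AC -0.38, HIST1H2AE -0.088, HIST1H2BG -0.24, HIST1H2BJ -0.30, HIST1H2BK -0.21, HIST1H3H -0.45, HIST1H4H -0.40, HIST3H2A -0.33, HIST1H2BD -0.57, HIST1H2AG -0.58 and HIST1H2BC -0.70. Quantile normalisation did so for H2AFZ -0.029 (AT7519 against Control) and H2AFZ -0.23 (Combination against Control). Mitochondrial scaling shifted the median of all genes by -0.91 with AT7519, -0.95 with Combination and -0.81 for Combination against OSMI-2; the cause of the other moves was not tested. With 2 libraries a group and 4 residual degrees of freedom, small changes of genes with few reads were not detectable.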
